A study of Mus musculus with 8 samples.

Results

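The oxidative stress response genes described here are 10 genes of the NRF2 pathway and of the antioxidant enzymes, namely Nfe2l2, Hmox1, Nqo1, Gclc, Gclm, Slc7a11, Txnrd1, Srxn1, Prdx1 and Sod2. They were chosen by name, as the loci of the RNA-Seq count table whose most frequent gene name was one of these, which gave 11 loci for the 10 genes among 44396 loci in all. Slc7a11 had 2 loci and the other genes 1 each. None of the 10 genes passed the test for a change after morphine, which 1.52% of all tested loci did. Gclc alone of the 10 carried a peak of the repressive histone mark H3K27me3 at its promoter in at least 1 library, as did 27.9% of 13497 protein-coding genes.

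The study asked how morphine changes the transcriptome and the distribution of H3K27me3 in mouse embryonic stem cells (mESCs). It gave 4 RNA-Seq and 4 H3K27me3 ChIP-Seq libraries, 2 of each from control and 2 of each from morphine-treated cells. All cells carried GFP under the Oct4 promoter, a reporter of the undifferentiated state, and grew without feeder cells on 0.1% gelatin, with passaging every 48 h. The morphine groups received 10 µM morphine for 24 h and the control groups the saline vehicle (0.9% NaCl) for the same time. Per the study's methods, every group was cultured with LIF (leukaemia inhibitory factor), kinase inhibitors, serum replacement and the thiol β-mercaptoethanol, and a single purchased line was used. No genotype other than the reporter is given. The sources used here do not say whether the 2 RNA-Seq samples of a condition came from separate cultures, so p-values measure only the spread between these samples.

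NRF2, encoded by Nfe2l2, is the transcription factor that drives the response of cells to electrophiles and oxidants. In unstressed cells KEAP1 and the ubiquitin ligase built on CUL3 mark NRF2 for degradation, and modification of KEAP1 cysteines lets NRF2 accumulate, pair with small MAF proteins and bind the antioxidant response element (ARE) near its target genes. Its targets make glutathione, keep thioredoxin and peroxiredoxins reduced and detoxify haem and quinones, while Sod2 encodes the mitochondrial superoxide dismutase and also answers to other stress pathways. Because NRF2 is regulated mainly through its stability, the RNA of its targets rather than its own RNA is the usual readout of its activity.

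The ARE core TGACNNNGC was looked for on both strands in RefSeq promoter windows of 300 bases (250 before and 50 after each listed start, build GRCm38.p6). Matches are shown because the ARE is the sequence feature through which NRF2 is known to act, not because NRF2 is known to bind these sites. Of the 10 genes, 8 were in the promoter table, with 10 windows, and Hmox1 and Gclc were not in it. A match lay in 5 windows of 5 genes, and over all promoters 4071 of 32851 windows (12.4%) held one. Each site below is the 9-base core in capitals with 10 bases on either side, printed 5′ to 3′ on the minus strand of the genome.
Nfe2l2, chr2:75704885-75704913: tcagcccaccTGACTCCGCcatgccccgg
Gclm, chr3:122245413-122245441: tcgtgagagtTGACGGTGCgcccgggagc
Prdx1, chr4:116685456-116685484: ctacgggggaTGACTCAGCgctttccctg
Srxn1, chr2:152105542-152105570: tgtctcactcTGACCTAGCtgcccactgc
Txnrd1, chr10:82859104-82859132: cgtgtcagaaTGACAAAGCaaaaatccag

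Positions are counted in the direction of transcription, which is opposite to the printed strand for every gene but Nfe2l2. The core began 240 bases before the start of Nfe2l2, 134 before that of Gclm and 133 before that of Prdx1. In Txnrd1 it began 92 bases before 1 of the 3 listed starts, and in Srxn1 28 bases after the start, within the transcribed part. The Prdx1 core also holds TGACTCA, the motif of AP-1 factors, so that the letters alone do not tell the 2 motifs apart. The windows of Nqo1, Slc7a11 and Sod2 held no match, which says only that these letters are not in these 300 bases. A match is a description of the sequence and not a measured binding site.

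The RNA-Seq counts were deposited per locus, and the totals per library ran from 25081266 to 29531096. Of all loci, 20350 passed the filter on low counts and were tested with edgeR's quasi-likelihood test, and 309 (1.52%) were called at an adjusted p (Benjamini-Hochberg) of 0.05 or less, 125 of them higher and 184 lower after morphine. The number of calls moved with single libraries, with 13 loci called without morphine replicate 1 and 1619 without control replicate 2. The labelled cell type was checked by its markers. All 10 stem cell markers were tested and none was called, with 7 of 10 log2 fold changes below 0 and a median of -0.03. Pou5f1 (Oct4) was highest at 0.23 (edgeR adjusted p = 0.0525). It stood at 0.10 (edgeR adjusted p = 0.245) with trends of length and GC content removed, as described below. The summed level of the 10 markers was 7298 and 7174 TPM (counts scaled by locus length and by the total of each library) in the controls and 7514 and 7348 TPM after morphine. Summed levels of the other marker lists were 11.4 to 14.1 TPM for fibroblasts, 11.9 to 12.5 for neural cells, 1.85 to 2.55 for mesoderm, 10.8 to 12.9 for endoderm and 2.51 to 3.10 for trophoblast, with Dcn at 0 counts in every library. In such bulk libraries, fewer cells of a type and less RNA per cell cannot be told apart.

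Of the 10 genes, all passed the filter on low counts through at least 1 locus, and 0 of 10 were called in either direction, against 0.614% of all tested loci called higher and 0.904% called lower. Their median log2 fold change was -0.04, against 0.00129 over all tested loci, and single genes ranged from -0.23 (Slc7a11) to 0.12 (Srxn1). At an unadjusted p below 0.05 there was 1 gene of 10 (Srxn1), where 20.5% of all tested loci reached that level. In 2 genes (Srxn1 and Sod2) both morphine libraries lay above both controls, and in 5 (Nfe2l2, Nqo1, Gclm, Txnrd1 and Prdx1) both lay below, against 26.0% and 26.8% of all tested loci. With 2 libraries against 2 such an order is common and was not read as a change. For the 9 genes with at least 1000 counts over the 4 libraries, the 95% intervals of the fold change ran from 0.861 (the lower bound of Gclm) to 1.18 (the upper bound of Srxn1). DESeq2 called 0 of the 10 genes and 3.20% of all tested loci, but it gave Slc7a11 no adjusted p, so that gene could not be called.

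**Figure D1:**
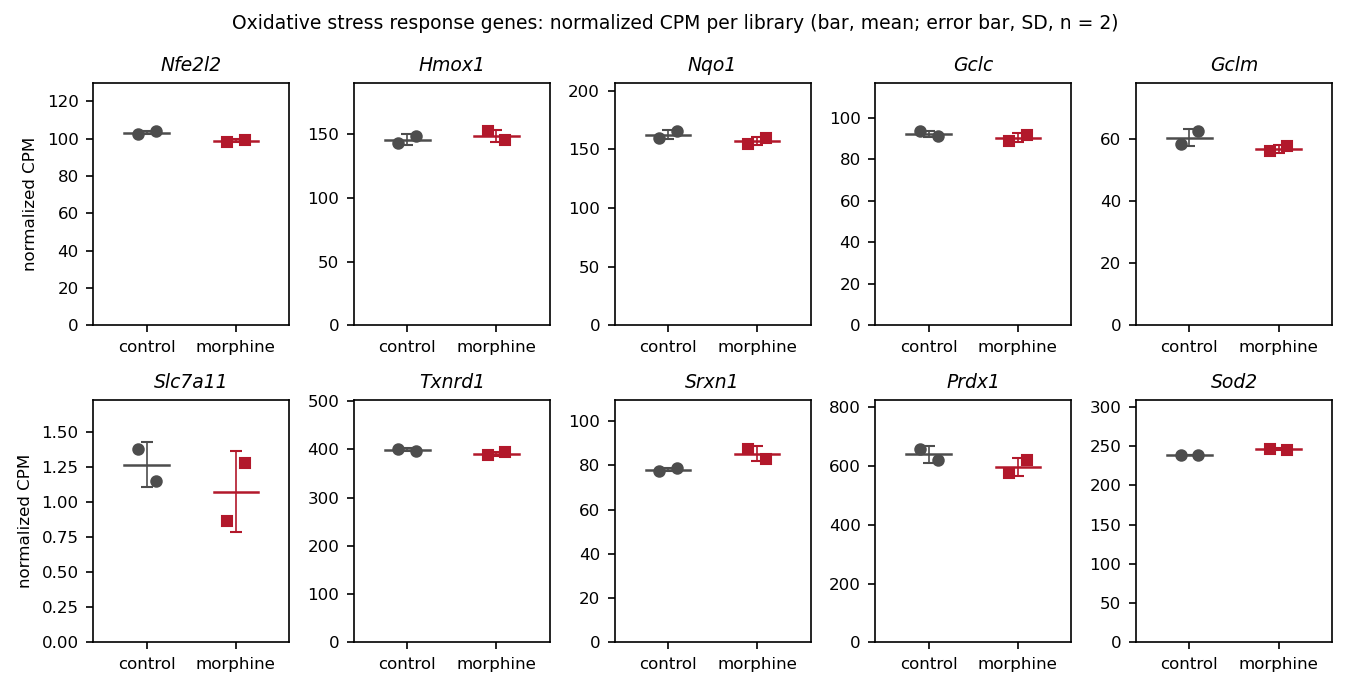
Normalized CPM (counts scaled to the TMM library sizes, linear axes from 0) of each of the 10 genes in the 2 control (grey circles) and 2 morphine (red squares) libraries, with the mean as a bar and the SD as an error bar (n = 2). Slc7a11, which had 22 to 38 counts per library, is left out of the next comparison. The ratio of the highest to the lowest of the 4 libraries was smallest for Sod2 (239 and 247 CPM) and largest for Prdx1 (574 and 659 CPM).

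Nfe2l2 itself (chr2:75675513-75704663, minus strand, 6 exon blocks, mm10) was measured at 102 and 104 normalized CPM (counts scaled to TMM library sizes) in control replicates 1 and 2 and at 98.4 and 99.4 CPM in morphine replicates 1 and 2. Both morphine libraries lay just below both controls. The log2 fold change was -0.06 (SE 0.05, 95% interval -0.17 to 0.05), which did not pass the edgeR quasi-likelihood test (adjusted p = 0.537). Nfe2l2 RNA was thus present at about the same level in the 4 libraries, and the 95% interval of the fold change ended at 1.03. With trends of length and GC content removed, as described below, the log2 fold change was 0.03 and the interval ended at 1.08-fold.

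Glutathione synthesis starts with cystine import and the ligation of cysteine to glutamate. Gclc and Gclm encode the catalytic and the modifier subunit of glutamate-cysteine ligase, the rate-limiting enzyme, and Slc7a11 the cystine-glutamate exchanger xCT. Gclc (chr9:77754535-77794489, plus strand, 15 exon blocks) had 93.3 and 91.2 CPM in the controls and 88.8 and 91.8 CPM after morphine. The groups overlapped, and the log2 fold change was -0.03 (SE 0.05, edgeR adjusted p = 0.790). Gclm (chr3:122245557-122267215, plus strand, 7 exon blocks) had 58.5 and 62.5 CPM in the controls and 56.0 and 57.8 CPM after morphine. Both morphine libraries lay below both controls, by a log2 fold change of -0.09 (SE 0.06, 95% interval -0.22 to 0.04, edgeR adjusted p = 0.439). It was -0.03 without control replicate 2 and -0.14 without control replicate 1. The ratio of Gclc to Gclm TPM was 0.920 and 0.842 in the controls and 0.914 and 0.916 after morphine, which is a description and was not tested.

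Slc7a11 was the 1 gene of the 10 that was close to the limit of detection. Its longer locus (chr3:50364936-50443613, minus strand, 12 exon blocks) held 38 and 34 counts in the controls and 22 and 36 after morphine, few reads for libraries of the depth given above. Morphine replicate 1 was low and morphine replicate 2 lay between the controls, so the groups overlapped. The log2 fold change of -0.23 had an SE of 0.28 and a 95% interval from -0.84 to 0.39 (edgeR adjusted p = 0.704), and was 0.01 without morphine replicate 1. With so few counts the interval spans both a marked fall and a moderate rise. The shorter locus, which overlaps the longer one, held 2, 8, 2 and 1 counts and was not tested. Slc3a2, which encodes the heavy chain that carries xCT to the membrane and also serves other amino acid transporters, was measured at 304 and 323 TPM in the controls and 338 and 331 TPM after morphine. Its level exceeded that of Slc7a11 by a factor of 769 to 1352 in the 4 libraries.

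The thioredoxin arm held the most abundant member. Prdx1 encodes a cytosolic peroxiredoxin that reduces hydrogen peroxide, Srxn1 the sulfiredoxin that repairs overoxidized peroxiredoxins, and Txnrd1 the cytosolic thioredoxin reductase. Prdx1 (chr4:116662419-116700000, plus strand, 7 exon blocks) had 659 and 619.5 CPM in the controls and 574 and 618 CPM after morphine. Morphine replicate 1 was the lowest library, and morphine replicate 2 lay just below the lower control. The log2 fold change of -0.10 (SE 0.05, 95% interval -0.21 to 0.01) did not pass (edgeR adjusted p = 0.279). Leaving out 1 library, it ran from -0.15 (without morphine replicate 2) to -0.05 (without morphine replicate 1). It was -0.01 with trends of length and GC content removed, as described below. Prdx1 (68263 counts over the 4 libraries) overlaps the locus of AV051173 on the other strand, which held 154 counts, and RefSeq lists a Prdx1 pseudogene. Neither strand setting nor treatment of reads with several alignments is given in the sources used here, so reads shared with these could not be told apart.

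Srxn1 (chr2:152105524-152111376, plus strand, 2 exon blocks) had 77.6 and 78.6 CPM in the controls and 87.5 and 82.7 CPM after morphine. Both morphine libraries lay above both controls, with means of 85.1 ± 3.4 (SD, n = 2) after morphine and 78.1 ± 0.68 (SD, n = 2) in the control. This was the highest fold change of the 10 genes, 1.09-fold (log2 0.12, SE 0.05, 95% interval 0.0046 to 0.24), and it did not pass the correction over all loci (edgeR, unadjusted p = 0.043, adjusted p = 0.227). Srxn1 stood at 0.05 with trends of length and GC content removed, as described below, and Sod2 was then the highest at 0.11. Txnrd1 (chr10:82833951-82897724, plus strand, 17 exon blocks) had 402 and 398 CPM in the controls and 388 and 394 CPM after morphine. Both morphine libraries lay below both controls, with a log2 fold change of -0.03 (SE 0.04, edgeR adjusted p = 0.733). Its locus overlaps that of Eid3, which held 42 counts over the 4 libraries. Within this arm the ratio of Prdx1 to Srxn1 TPM was 16.5 and 15.3 in the controls and 12.7 and 14.5 after morphine, and that of Txn1 (thioredoxin) to Txnrd1 was 3.37 and 3.33 in the controls and 3.66 and 3.39 after morphine. These ratios are given as a description and were not tested.

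Hmox1 and Nqo1 are classical NRF2 target genes. Hmox1 encodes haem oxygenase 1, which splits haem into biliverdin, iron and carbon monoxide and is one of the most inducible stress genes, and Nqo1 a quinone reductase. Hmox1 (chr8:75093588-75100593, plus strand, 5 exon blocks) had 142.9 and 149 CPM in the controls and 152 and 146 CPM after morphine. The groups overlapped, and the log2 fold change was 0.03 (SE 0.05, 95% interval -0.08 to 0.14, edgeR adjusted p = 0.791). It turned to -0.0033 without control replicate 1 and to -0.0037 without morphine replicate 1. Nqo1 (chr8:107388225-107403205, minus strand, 5 exon blocks) had 159.8 and 165 CPM in the controls and 155 and 159 CPM after morphine. The morphine libraries lay below the controls, morphine replicate 2 only just, and the log2 fold change of -0.05 (SE 0.05) did not pass (edgeR adjusted p = 0.605) and ran from -0.08 (without control replicate 1) to -0.02 (without control replicate 2).

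Sod2 (chr17:13006906-13040063, plus strand, 10 exon blocks), the manganese superoxide dismutase of mitochondria, had 239 CPM in both controls and 247 and 245 CPM after morphine. Both morphine libraries lay above both controls, and the spread within groups was the smallest relative to the mean among the 10 genes. The difference was small, with a log2 fold change of 0.04 (SE 0.04, 95% interval -0.05 to 0.14), and did not pass (edgeR adjusted p = 0.631). Removal of the length and GC trends, as described below, gave 0.11 (95% interval 0.04 to 0.18, edgeR adjusted p = 0.201), which did not pass either. The Sod2 locus overlaps an unnamed locus of 158 counts. Sod1, the cytosolic copper-zinc enzyme, was at 11.4 to 12.0 times the TPM of Sod2 in the 4 libraries. This ratio rests largely on locus length, 7653 bases for Sod2 and 1066 for Sod1. In CPM Sod1 had 386 and 378 in the controls and 411 and 391 after morphine, much closer to Sod2.

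Between genes, levels were compared only as TPM, averaged over the 4 libraries. Prdx1 was highest at 1138.5 TPM (1052 to 1198), above Txnrd1 at 262 TPM (256 to 267) and Nqo1 at 262 TPM (252 to 274), whose ranges overlapped. Hmox1 followed at 223 TPM (214 to 229), apart from its neighbours on both sides. Sod2 (84.6 TPM), Srxn1 (77.5 TPM), Gclm (75.7 TPM), Nfe2l2 (70.7 TPM) and Gclc (67.8 TPM) came next, and in this run each neighbouring pair had overlapping ranges. Slc7a11 was last at 0.339 TPM (0.250 to 0.395), far below Gclc. The order thus had 4 steps larger than the spread over libraries, after Prdx1, after Nqo1, after Hmox1 and after Gclc. It depends on the lengths of the assembled loci, such as 7653 bases for Sod2 and 1763 for Hmox1. In CPM Sod2 lay above Hmox1. Prdx1 lay within the top 0.17% of all loci by TPM and Txnrd1, Nqo1 and Hmox1 within the top 1.52%, 1.52% and 1.86%, while Slc7a11 stood at the top 49.5%.

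Over all tested loci the log2 fold change was related to GC content (Spearman's correlation across loci 0.485, which are not independent replicates). The 10 genes had exons of 40.7% (Slc7a11) to 54.0% GC (Hmox1), with a median of 47.9% against 49.7% over the tested loci. The 3 genes with a positive log2 fold change were Srxn1 (53.3% GC), Hmox1 (54.0%) and Sod2 (47.7%), and the most negative were Slc7a11 (40.7%) and Prdx1 (43.1%). Gclm (50.6% GC, log2 -0.09) and Txnrd1 (51.6% GC, log2 -0.03) were negative at a GC content above the median of the 10 genes. When trends with locus length and GC content were removed from each library, Prdx1 stood at -0.01, Srxn1 at 0.05, Nfe2l2 at 0.03, Hmox1 at -0.06 and Gclc at 0.00094, so that the last 3 changed sign. Slc7a11 stood at -0.04, Nqo1 at -0.03 and Txnrd1 at -0.05. In that fit Sod2 was at 0.11 (95% interval 0.04 to 0.18, edgeR adjusted p = 0.201) and Gclm at -0.11 (-0.22 to -0.0043, edgeR adjusted p = 0.378), and 0 of the 10 genes passed, where 92 of 20335 loci (0.452%) did.

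**Figure D2:**
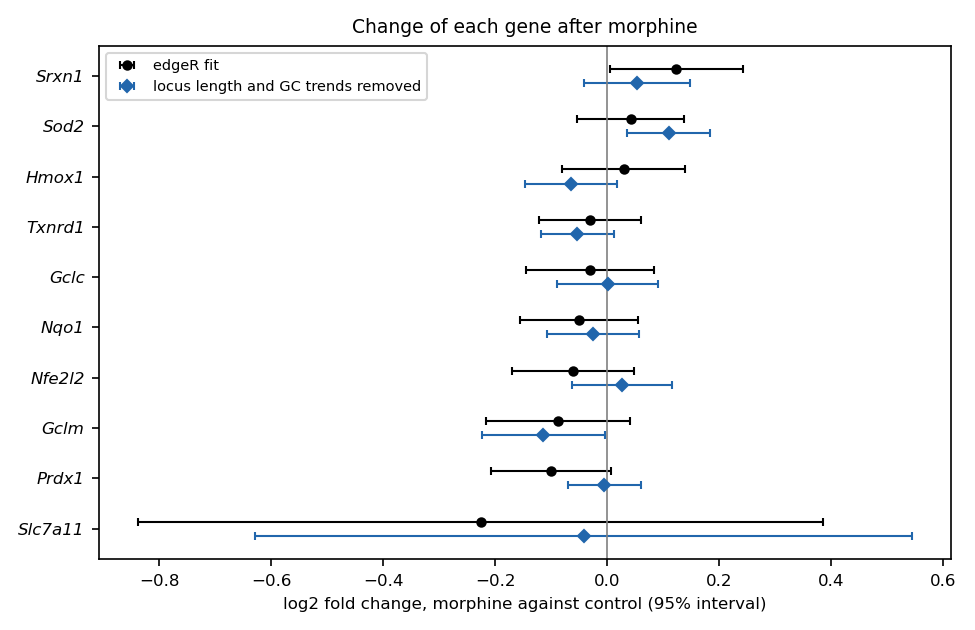
Log2 fold change (morphine against control) of each gene with its 95% interval, from the edgeR fit (black) and from the fit without the length and GC trends (blue). Every point lies between -0.11 and 0.12 except the black one of Slc7a11 (-0.23), and the black interval lies above 0 only for Srxn1.

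**Figure D3:**
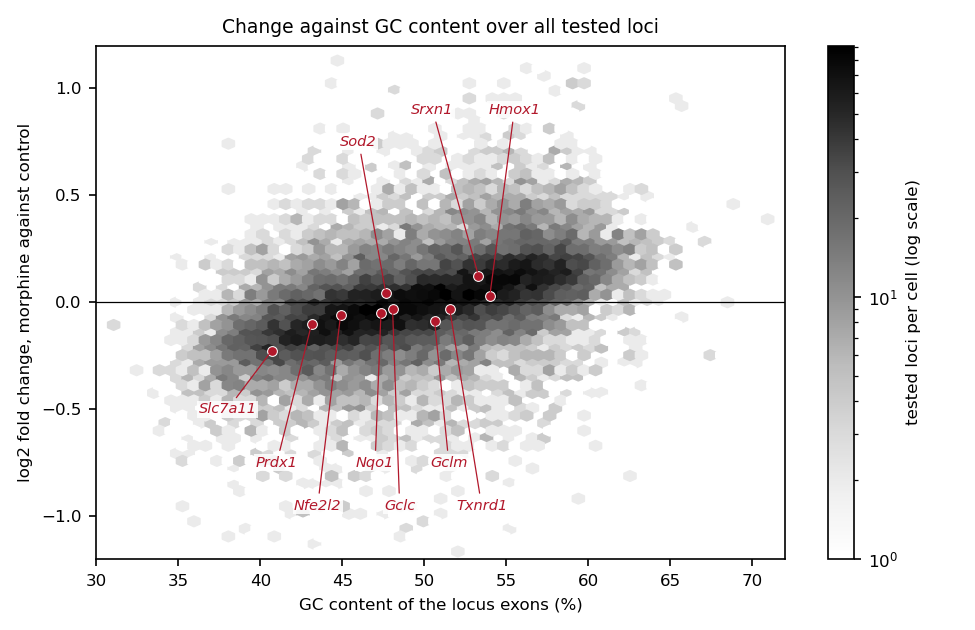
Log2 fold change against the GC content of the locus exons, for 20335 tested loci as grey cells (log-scaled number of loci, 134 loci lie beyond the axes) and for the 10 genes as red points. The cloud slopes upward (Spearman's correlation 0.485), and the 10 genes lie within its dense part.

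The other genes of the response were read from 6 lists by role, 81 genes in all, of which 80 had a named locus (Gstm2 had none) and 78 passed the count filter. Of these 78 genes 0 were called higher and 1 was called lower, Cul3, against 0.614% and 0.904% of all tested loci. The median log2 fold change of the 78 genes was 0.05 and was -0.01 with the length and GC trends removed, and their median GC content was 52.1%. At an unadjusted p below 0.05 there were 16 genes higher and 4 lower, against 9.70% and 10.8% of all tested loci.

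Cul3 encodes the cullin of the ubiquitin ligase that KEAP1 brings to NRF2 and also serves many other substrates. It had 183 and 176 CPM in the controls and 143 and 157 CPM after morphine, so both morphine libraries lay below both controls. Its RNA fell by 0.26 on the log2 scale (SE 0.05, 95% interval -0.38 to -0.14, edgeR adjusted p = 0.045), a fold change of 0.836. The exons of Cul3 are GC-poor (40.2%). The call was lost with the length and GC trends removed (log2 -0.09, edgeR adjusted p = 0.343) and without morphine replicate 1 (-0.20, edgeR adjusted p = 0.405). Keap1, the sensor itself, was at 15.8 and 16.8 TPM in the controls and 17.7 and 17.6 TPM after morphine and did not pass (log2 0.11, edgeR adjusted p = 0.335, 0.0038 with the trends removed). Its locus overlaps that of AK154190. Keap1 and the genes of the promoter paragraph other than Gclc were named after their values had been seen.

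Of the 11 regulators and partners of NRF2 tested, 1 was called, with a list median of 0.05 that was -0.01 with the trends removed. The highest levels were those of Sqstm1, the autophagy receptor p62 that competes with NRF2 for KEAP1 (491 and 529 TPM in the controls, 575 and 557 TPM after morphine, log2 0.15, edgeR adjusted p = 0.107, 0.04 with the trends removed), Nfe2l1, a related factor (log2 0.06, -0.01 with the trends removed), and Rbx1, the RING subunit of the ligase (log2 0.05, 0.09 with the trends removed). The ratio of Nfe2l1 to Nfe2l2 TPM was 3.35 and 3.33 in the controls and 3.70 and 3.58 after morphine.

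Of 24 tested genes of glutathione use, recycling and conjugation, 0 were called, with a median of 0.05 that was -0.03 with the trends removed. The most abundant were Gpx1, a glutathione peroxidase (1287 and 1438 TPM in the controls, 1529 and 1490 TPM after morphine, log2 0.15, edgeR adjusted p = 0.131, -0.01 with the trends removed), Gsta4, a glutathione transferase (log2 0.05, 0.03 with the trends removed), and Slc3a2 (log2 0.09, 0.01 with the trends removed). Of 17 thioredoxins, peroxiredoxins, sestrins and methionine sulfoxide reductases, 0 were called, with a median of 0.04 (0.07 with the trends removed). Prdx2 overlaps the locus of Junb on the other strand. Txn1 had a log2 fold change of 0.04, Prdx6 of 0.07 and Prdx2 of 0.15 (edgeR adjusted p = 0.145), which were 0.07, 0.10 and 0.13 with the trends removed. The ratio of Prdx1 to Prdx2 TPM was 5.33 and 5.07 in the controls and 4.06 and 4.74 after morphine.

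Of the superoxide dismutases and catalase, 3 of 4 were tested and 0 called, with a median of -0.05 (-0.03 with the trends removed). Sod1 stood at 0.07, Cat (catalase) at -0.05 and Ccs, the copper chaperone of SOD1, at -0.08 (-0.02, -0.03 and -0.21 with the trends removed), while Sod3 had 0 counts in all libraries. The 8 genes of NADPH supply, the electron source for thioredoxin and glutathione reductases, had log2 fold changes of 0.03 to 0.13 with a median of 0.07. With the trends removed 4 of the 8 were above 0 and the median was 0.02, and over all tested loci 50.3% of the log2 fold changes of the edgeR fit were above 0. None was called, and Tkt stood at 0.12 (edgeR adjusted p = 0.161), Taldo1 at 0.13 (0.163) and Idh1 at 0.10 (0.214), while Tkt and Taldo1 both stood at 0.04 with the trends removed. With the length and GC trends removed Idh1, the cytosolic isocitrate dehydrogenase, was called higher (log2 0.18, edgeR adjusted p = 0.031), and it was the 1 gene of the 6 lists called in that fit. Of 15 genes of iron, haem, quinone and carbonyl handling, 0 were called, with a median of 0.0034, which was Fth1, and of -0.02 with the trends removed. The ferritin chains Ftl1 and Fth1 stood at 0.03 and 0.0034, and Cbr1, a carbonyl reductase, at 0.16 (edgeR adjusted p = 0.189). With the trends removed they stood at -0.13, -0.08 and 0.07.

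**Figure D4:**
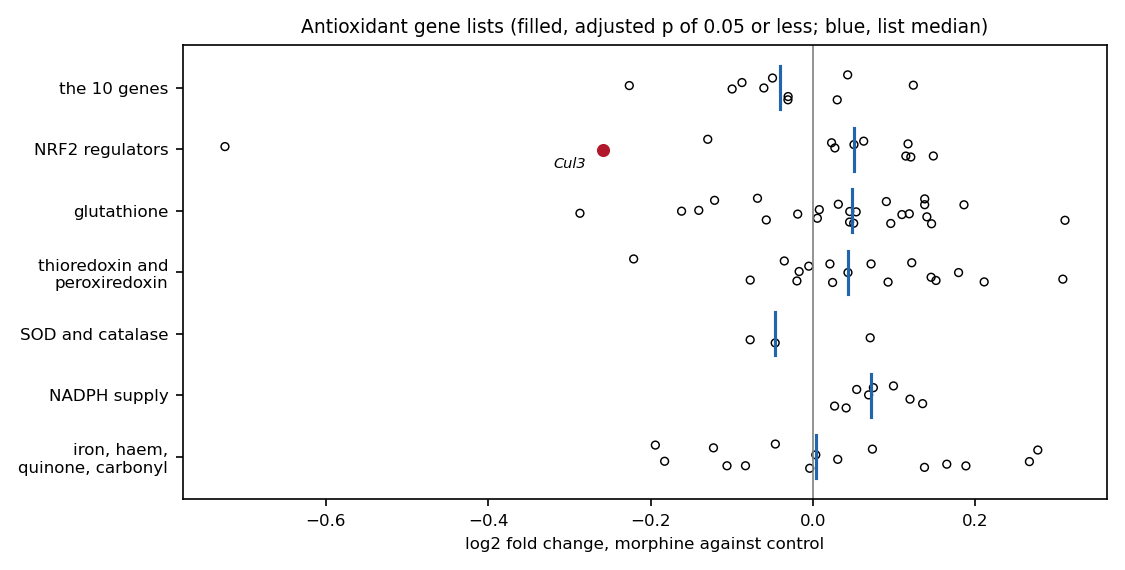
Log2 fold change (morphine against control) of the 10 genes and of the tested genes of the 6 wider lists, with 1 circle per gene (height within a row is for display only) and the median of each list in blue. The only filled point (edgeR adjusted p of 0.05 or less) is Cul3 at -0.26, and the median of the 10 genes lies at -0.04.

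H3K27me3 is laid down by the polycomb complex PRC2 and marks repressed promoters, often rich in CpG. The deposited peak lists hold 10305 and 13778 peaks for the controls and 8681 and 12282 after morphine, each called separately, and give position and a score but no read counts. Within 1 kb of an annotated start site (GENCODE vM21), 1 of the 10 genes (Gclc) had a peak in any library, against 27.9% of 13497 protein-coding genes, those with a tested RNA locus, of which 15.0% had one in all 4 libraries. The other 9 genes had none in any of the 4 libraries. The closest peaks to them were at 2.9 kb from the Slc7a11 start (control replicate 2 alone), at 16.9 kb from Gclm (control replicate 1) and at 25.8 to 26.5 kb from Nqo1 in all libraries, and those of Prdx1, Sod2 and Txnrd1 were at 152.9 to 153.0, 127.1 to 127.4 and 92.5 to 92.7 kb. Across the libraries the nearest peak was 94.8 to 268.7 kb from Nfe2l2, 93.7 to 218.3 kb from Hmox1 and 38013 to 129892 bases from Srxn1.

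At Gclc, control replicate 1 had a peak at chr9:77754974-77756270, from 439 to 1735 bases after the start site, with a score of 54.46, higher than 9.39% of the peaks of that library. Control replicate 2 had no peak nearer than 31.3 kb. Morphine replicate 1 had a peak at chr9:77754487-77756313 with a score of 167.05, higher than 87.0% of its peaks, and morphine replicate 2 one at chr9:77754495-77756354 with a score of 163.24, higher than 85.01%. The morphine peaks began 48 and 40 bases before the start site, so the start itself lay under a peak after morphine in each library and in no control library. The same pattern held for 319 of 13497 protein-coding genes (2.36%) and its reverse for 37 (0.274%). A peak within 1 kb in both morphine libraries was found together with a peak in a single control library, as at Gclc, for 1.78% of these genes and without any control peak for 1.24%, and peaks in both controls without any after morphine for 0.748%. With a score of at least 100 required in every library, the promoter peak of Gclc remained in the morphine libraries alone, but the score also depends on the depth of a library, which is unknown here. The lists hold no read counts, so the difference was not tested, and Gclc RNA did not differ beyond the spread between libraries (log2 fold change -0.03, 95% interval -0.14 to 0.08).

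**Figure D5:**
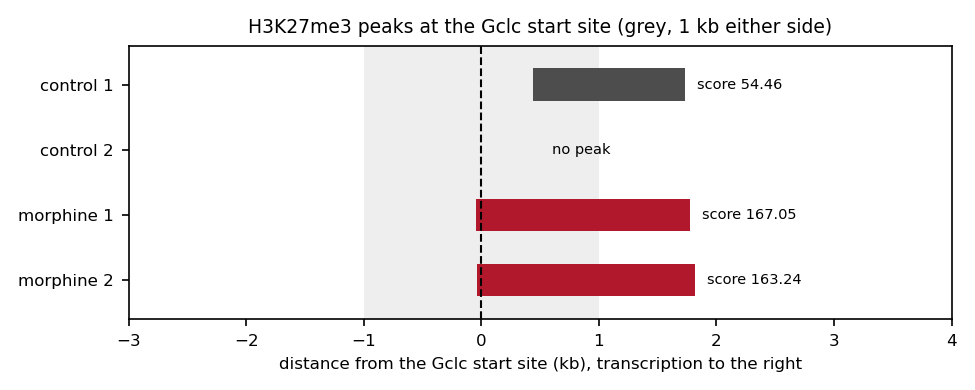
H3K27me3 peaks at the Gclc start site in the 4 libraries, drawn by distance from the start (kb, transcription to the right), with the authors' score beside each peak and the 1 kb on either side in grey. The morphine libraries have a peak across the start site (scores 167.05 and 163.24), control replicate 1 has one that begins after it (54.46), and control replicate 2 has none.

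The promoters of the 10 genes differed in CpG content, measured as the observed to expected ratio in 1001 bases around the start. For a gene with several annotated starts, here and in the background, the start with the highest ratio was taken. The ratio was 1.02 at Gclm, 0.918 at Gclc, 0.854 at Prdx1, 0.847 at Srxn1, 0.816 at Sod2 and 0.755 at Txnrd1. It was below 0.6 at Nfe2l2 (0.572), Hmox1 (0.542), Nqo1 (0.405) and Slc7a11 (0.354). So 6 of 10 exceeded 0.6, against 72.9% of the 13497 protein-coding genes, whose median was 0.738. Gclc, the member with a peak, had the second highest ratio, and Gclm, with the highest, had no peak nearer than 16.9 kb in any library.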

How the data were processed

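RNA-Seq and H3K27me3 ChIP-Seq were measured in 2 control and 2 morphine libraries each, grouped by the sample labels. The authors aligned RNA reads to mm10 with HISAT2 (2.1.0), assembled loci with StringTie (1.3.6) and counted with featureCounts (1.6.4), and the deposited values are raw counts per locus. ChIP reads were aligned by the authors with Bowtie2 (2.3.5.1), and MACS peaks were called for each library alone with a p-value threshold of 1e-05. The deposited score of a peak is a log10-scaled p-value. It was ranked within a library and, in 1 alternative, held to the same minimum in all libraries. The labels and the study's methods name different antibody suppliers.

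A locus took its most frequent gene name, and a gene of the wider lists its locus with the most counts. After a filter on low counts (filterByExpr) and TMM scaling, loci were compared with the quasi-likelihood test of edgeR (version 4.0.16 in R 4.3.3), with Benjamini-Hochberg adjustment over all 20350 tested loci. SEs were taken from the F statistic and 95% intervals from the degrees of freedom of the fit. TPM was computed from counts and locus length. The script was tested on simulated data. Peaks were placed against GENCODE vM21 basic start sites on GRCm38, which shares the coordinates of mm10, and promoter sequences and their starts are those of RefSeq GRCm38.p6. The alternatives were edgeR's exact and likelihood ratio tests, DESeq2 (1.42.0), RLE or total-count scaling, no count filter or at least 100 counts, the replicate number as a block, removal of length and GC trends (natural splines, 5 degrees of freedom, with and without the block), named loci only, an FDR of 0.01 and leaving out each library. For peaks they were a promoter of 3 kb, a score of at least 100, and the peak midpoint. The members, lists and alternatives were chosen with earlier results of these data known. All 10 members are named with values, and of the wider lists each gene that passed an FDR of 0.05 and the 3 genes per list with the highest TPM. Neurod1 of the neural markers had no named locus.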

Additional observations from a re-analysis of the deposited data

How the results depend on the processing

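The number of the 10 genes called was 0 under all 16 alternatives, and the adjusted p of single members ran from 0.132 to 0.997. DESeq2 gave no adjusted p for Slc7a11. Of 150 member log2 fold changes under alternatives, 141 kept their sign. With the length and GC trends removed, Nfe2l2 was 0.026, Hmox1 -0.064 and Gclc 0.00094 (0.026, -0.064 and 0.0011 with the replicate block as well), the median of the 10 genes was -0.015 with and without the block, and Cul3 was -0.09 in both. Leaving out 1 library, the median ran from -0.061 to -0.014, Hmox1 from -0.0037 (without morphine replicate 1; -0.0033 without control replicate 1) to 0.066, Slc7a11 from -0.54 to 0.014, Gclm from -0.14 to -0.032, Nqo1 from -0.078 to -0.019, Gclc from -0.055 to -0.0071, Prdx1 from -0.15 to -0.047 and Cul3 from -0.32 to -0.20. All loci called (309, 125 higher and 184 lower) became 790 with the exact test, 840 with the likelihood ratio test, 652 with DESeq2, 515 with total counts (281 higher, 234 lower), 1657 without a count filter, 1128 with the replicate block, 92 with the trends removed (59 higher, 33 lower), 333 with the trends removed and the replicate block (161 higher, 172 lower), 984 with named loci only, 24 at an FDR of 0.01 and 13 to 1619 leaving out 1 library. Among the wider lists (0 higher and 1 lower, Cul3), the number was 3 with the exact test, the likelihood ratio test and the replicate block (Blvrb and Ephx1 higher, Cul3 lower), 4 with named loci only (also Sesn2, higher), 4 with DESeq2 (Sesn2, Sqstm1 and Txn2 higher, Cul3 lower), 6 without a count filter (Blvrb, Ephx1, Gpx1, Sesn2 and Txn2 higher, Cul3 lower), 0 at an FDR of 0.01 and 0 to 6 leaving out 1 library, with 6 (5 higher, 1 lower) without control replicate 2. With the trends removed the number was 1 with and without the block, but the gene was Idh1, higher, in place of Cul3. The cause of these shifts was not tested. Same-numbered libraries had a correlation of deviations of 0.0264 and no label pairs them, so the block is given only here. The number of member promoters with a peak in both controls was 0, and 1 (Gclc) without control replicate 2, and ran from 0 to 1 leaving out 1 library. With 22 to 38 counts per library Slc7a11 had the widest interval of the 10 genes, and all 10 were compared with only 2 libraries per group.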

Other observations

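Of the 81 genes of the wider lists, 58 had no H3K27me3 peak within 1 kb of a start site in any library, 23 (28.4%) had one in at least 1 library, against 27.9% of 13497 protein-coding genes, and 11 in all 4, against 15.0% of those genes. The sets differ slightly, since all of the 13497 had a tested RNA locus and 78 of the 81 did. The genes with a peak in all 4 libraries included Mafk and Bach1, a partner and a competitor of NRF2 at the ARE, Sesn1, a sestrin, and Cbr3, a carbonyl reductase. Gstm5, a glutathione transferase, and Idh1, a cytosolic NADPH source, had a peak after morphine in each library and in no control library (scores 68.4 and 86.09 for Gstm5 and 55.84 and 50.67 for Idh1), a pattern shown by 1.24% of 13497 protein-coding genes. Msrb3, a methionine sulfoxide reductase, had one in both controls (68.41 and 60.13) and in neither morphine library, as did 0.748% of those genes. The Idh1 scores were low: at Gclc a score of 54.46 was higher than only 9.39% of the peaks of control replicate 1. The lists do not tell a missing peak from one just below the calling threshold, and these differences were not tested. Log2 fold changes of RNA were 0.05 for Gstm5, 0.10 for Idh1 and -0.22 for Msrb3, and none passed edgeR's quasi-likelihood test (adjusted p = 0.814, 0.214 and 0.457). With trends of length and GC removed Idh1 was called higher (log2 0.18, edgeR adjusted p = 0.031). These genes were named after their values had been seen.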
